A study of Mus musculus with 24 samples.

Results

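The citric acid cycle genes studied here are 9 genes that encode mitochondrial enzymes or enzyme subunits: Cs, Idh3a, Idh3b, Idh3g, Ogdh, Dlst, Suclg1, Sucla2 and Mdh2. They were taken as a named list, matched to Ensembl identifiers through mouse gene symbols, and all 9 were found among the 30699 genes of the 4 deposited tables (22474 of those genes were in every table). White fat (WAT) and brown fat (BAT) were taken from C57BL/6 mice that had been given 2 subcutaneous injections at 25 mg/kg of a locked nucleic acid oligonucleotide, a chemically stabilised antisense strand. The oligonucleotide was directed against miR-224 (antimiR-224) or miR-452 (antimiR-452), or carried a scrambled sequence (scramblemiR, the control), so every group described here had been injected, the controls included. Each of the 6 groups held 4 samples, 24 in all, and polyadenylated RNA was sequenced from whole frozen tissue with a strand-preserving kit. The labels give no sex or age, do not say which fat depot was taken, and do not say whether the 4 samples of a group were 4 separate mice, so p-values measure the spread between samples as labelled. The file headers number the libraries, and of the 4 numbers in a group 2 recur in the other tissue for scramblemiR, 2 for antimiR-224 and 3 for antimiR-452, so some white and brown fat samples may come from 1 mouse, which the labels do not say; the tests treat them as independent. In whole tissue, fewer cells of a type and less RNA per cell cannot be told apart.

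The citric acid cycle oxidises acetyl-CoA in the mitochondrial matrix and hands electrons to the respiratory chain as NADH and as reduced flavin. Brown adipocytes are packed with mitochondria and burn fuel through the cycle to make heat when Ucp1 uncouples the respiratory chain, whereas white adipocytes hold few mitochondria and mainly store and release lipid. Cs makes citrate from acetyl-CoA and oxaloacetate. Idh3a encodes the catalytic subunit, and Idh3b and Idh3g encode the other subunits, of the NAD-dependent isocitrate dehydrogenase. Ogdh and Dlst encode the first and the core component of the 2-oxoglutarate dehydrogenase complex. Suclg1 encodes the alpha subunit shared by both succinyl-CoA ligases, Sucla2 the beta subunit of the ATP-forming form, and Mdh2 the matrix malate dehydrogenase that returns oxaloacetate to Cs.

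The oligonucleotides were aimed at microRNAs, which pair with messenger RNA mainly through a seed of bases 2 to 8, so the mature sequences of the 5p strands (RefSeq, GRCm38.p6) are shown with the seed in capitals; both lie on the minus strand of chrX, at chrX:72261085-72261105 and chrX:72262271-72262292.
miR-224-5p: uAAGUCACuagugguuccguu
miR-452-5p: uGUUUGCAgaggaaacugagac
The seeds differ. The longest coding transcript of each member (GENCODE M21, GRCm38) was searched for the reverse complement of each seed, GTGACTT for miR-224-5p and TGCAAAC for miR-452-5p. Among the 9 members, 1 match lay in a 3′ UTR, that of Idh3a, and it was for miR-452-5p; across 20962 genes with a 3′ UTR model, 9.62% held this match and 12.8% held that of miR-224-5p. The miR-224-5p match occurred in the coding sequence of Ogdh and of Dlst. The 3 stretches, with the match in capitals, were as follows.
Idh3a, 3′ UTR, miR-452-5p: cactagttTGCAAACtcgtggct
Ogdh, coding sequence, miR-224-5p: ccagtttgGTGACTTcaacaaca
Dlst, coding sequence, miR-224-5p: gagaggctGTGACTTtcctccga
A match is a description of letters and no evidence of binding. The values of these 3 genes under each inhibitor are given with the treatment comparisons.

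Because the members differed together between the tissues, the RefSeq promoters (GRCm38.p6, 250 bases before to 50 after the start) of the 8 members that matched the table were searched on both strands for letters recognised by factors known to act on mitochondrial genes. The letters were AAGGTCA and the longer TCAAGGTCA (estrogen-related receptors; the longer contains the shorter), the NRF1 palindrome, CCGGAAGT (GABPA and other ETS factors), TGACGTCA (CREB family) and the longer YY1 motif. TGACGTCA was found for Mdh2 and Ogdh. It is held by 1.79% of all 32851 promoters of this length and, counting any promoter of a gene, by 2.03% of 27025 genes. The NRF1 motif was found for Sucla2 (4.60% of all promoters, 5.19% of genes) and CCGGAAGT for Dlst (3.89% and 4.31%). AAGGTCA was found in 1 of the alternative Ogdh promoters (4.72% of promoters, 5.38% of genes). The letters of the longer form and of YY1 are in none of these windows (0.423% and 0.633% of all promoters). The stretches that hold these matches in the promoters upstream of or at a start site, with the alternative Ogdh promoter left out, all on the plus strand, are shown with the match in capitals.
Ogdh, chr11:6291447-6291596: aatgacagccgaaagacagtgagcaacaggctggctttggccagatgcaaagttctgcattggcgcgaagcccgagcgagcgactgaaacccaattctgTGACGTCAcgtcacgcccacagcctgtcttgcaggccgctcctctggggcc
Mdh2, chr5:135778512-135778539: gagagaatcgTGACGTCAggcctcgctc
Sucla2, chr14:73552759-73552786: ctgcgtctctGCGCCTGCGCggtgccca
Dlst, chr12:85110823-85110850: ggccggtctcACTTCCGGttgctgccgg
The Sucla2 and Dlst matches are printed as they read on the plus strand and match the motif on the minus strand. The Mdh2, Sucla2 and Dlst stretches each overlap an exon model. Of the letters searched, TGACGTCA was in the promoters of 2 of the 8 members and the others in 1 or none.

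The tables held group means of size-factor-normalized counts and no column for a single sample. The whole reads of the 4 libraries behind each mean were recovered from the printed digits of the means and, for the inhibitor groups, from the deposited p, for 99.7 to 99.9% of the features of each table. All 9 members were recovered in every control library and in both white fat inhibitor groups, but Ogdh was not recovered in the brown fat inhibitor groups and Cs was not recovered in brown fat with antimiR-452, where the deposited means stand alone. Most member reads of the inhibitor groups were chosen among several solutions by the deposited p, a choice that was not checked on simulated reads. Recovered libraries cannot be matched to sample titles and are numbered 1 to 4 within a group by size factor. Control libraries held 22175430 to 27935908 reads in genes for white fat and 16960694 to 20255777 for brown fat, and replicate libraries differed by far more than counting noise (chi-square per degree of freedom of at least 24.2 in all 36 pairs).

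Brown adipocyte markers were high in brown fat and low in white fat, but the brown fat libraries were not alike. On a scale common to the controls, 9 measured brown adipocyte markers (Ucp1 and Cidea among them) summed to 131549 to 307355 in brown and 438 to 2084 in white fat, and 10 markers of mature adipocytes to 338138 to 490924 and 698274 to 1073670.0. The 12 skeletal muscle markers summed to 1030020.0, 1131680.0, 622 and 1033 in the 4 brown fat control libraries and to 359.7 to 820.2 in white fat, so control libraries 1 and 2 of brown fat were rich in muscle RNA. The first library of brown fat with antimiR-224 and the first with antimiR-452 were also rich in muscle markers. Some libraries stood apart in many genes: among features with a mean of at least 100 and a single solution for their reads, the share below 0.45 of the group's median was 10.4% in library 1 of brown fat with antimiR-224, 7.76% and 13.8% in libraries 1 and 3 of brown fat with antimiR-452, 5.71% and 7.22% in library 4 of white fat with antimiR-224 and with antimiR-452, and 0.0465 to 4.83% in the others. On the white fat scale, 10 sperm lineage markers ranged from 16.7 to 32793 and 10 ciliated epithelium markers from 68.9 to 3701 over the control libraries, both highest in library 2. Mesothelium markers ranged from 2835 to 16272 on that scale. Summed macrophage markers lay at 9986 to 13739 in white and 2040.0 to 4414 in brown fat controls, erythroid markers at 10349 to 48325 and 677 to 23878, and tubule epithelium markers at 266 to 729 and 26.6 to 38.4. Ciliated and tubule epithelium markers reached higher sums in some treated than in any control white fat library, as given beside the treatment results. The part of any of these in the results was not tested.

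Control brown fat held more RNA of every member than control white fat. All 9 were higher (limma, Benjamini-Hochberg adjusted p at most 0.000165), by 4.27-fold for Mdh2 to 12.9-fold for Suclg1, with a median log2 difference of 2.92 against -0.05 over all 16424 features tested. Across all features, 43.1% were called, 20.5% higher in brown fat and 22.6% lower. The lowest brown fat library was above the highest white fat library for each of the 9 members, as for 20.3% of all features. Together the members took 0.191 to 0.299% of the reads of a white fat control library and 1.13 to 1.67% of those of a brown fat control library.

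**Figure D1:**
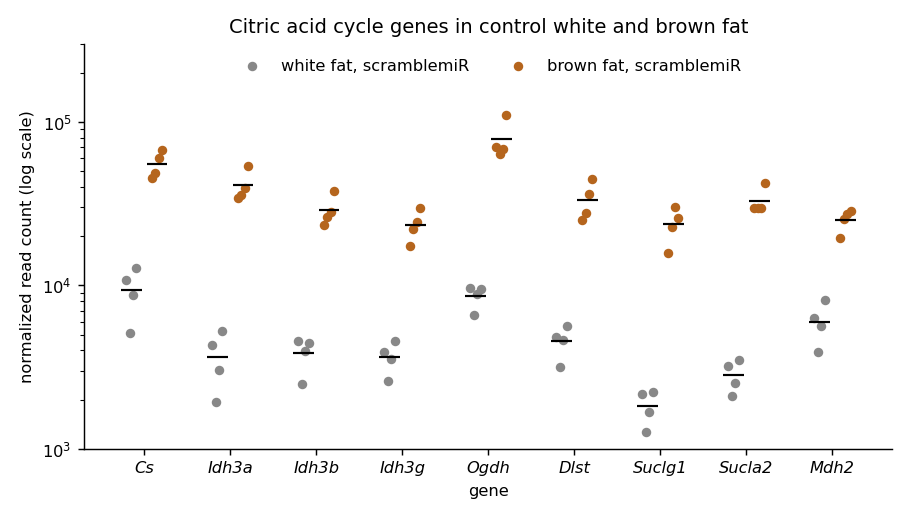
Normalized read counts of the 9 citric acid cycle genes (log scale) in the 4 scramblemiR libraries of white and of brown fat, scaled together. Points are libraries and bars are group means. Every brown fat point of a gene lies above all of its white fat points, and Ogdh in 1 brown fat library reaches 110990.

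The gene of the entry step, Cs (chr10:128337734-128362479, plus strand, GRCm38) gave normalized counts of 10847, 5144, 8717 and 12796 in the white fat control libraries and 45357, 48726, 59888 and 67280.0 in those of brown fat. Its mean rose from 9376 ± 3276 (SD, n = 4) to 55313 ± 10110.2 (SD, n = 4), a fold of 6.15 (log2 difference 2.62 ± 0.29 (SE), limma adjusted p = 0.000128). White fat libraries differed among themselves by more than brown fat libraries did in proportion, with library 2 lowest and library 4 highest.

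All 3 subunit genes of NAD-dependent isocitrate dehydrogenase were higher in brown fat, with folds of 6.43 to 11.8. The catalytic subunit gene Idh3a (chr9:54586334-54604661, plus strand) gave normalized counts of 4289, 1945, 3039.7 and 5292 in the white fat control libraries and 34465, 35854, 39544 and 53801 in those of brown fat, a fold of 11.8 (95% interval of the log2 difference 2.88 to 4.25). Idh3b (chr2:130279309-130284547, minus strand) gave normalized counts of 4571, 2501, 3942 and 4449 in the white fat control libraries and 23572, 26077, 28247 and 37705 in those of brown fat, a fold of 7.56 (log2 interval 2.38 to 3.45). Idh3g (chrX:73778963-73786897, minus strand) gave normalized counts of 3935, 2591, 3548 and 4594 in the white fat control libraries and 17521, 22257, 24578 and 29643 in those of brown fat, a fold of 6.43 (log2 interval 2.17 to 3.20). Within a library, the ratio of Idh3a to Idh3b reads per transcript length was 0.576 ± 0.123 (SD, n = 4) in white fat controls, at most 0.745, and 0.887 ± 0.0234 in brown fat controls, at least 0.861. This ratio was picked after the values were seen and is given without a test, and the 95% intervals of the 3 genes overlap. An exon of Idh3b overlaps Nop56 on the opposite strand, and no source used here says whether reads were counted by strand, so the Idh3b values are uncertain.

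Both genes of the 2-oxoglutarate dehydrogenase complex rose, by 8.94-fold and 7.30-fold. Ogdh (chr11:6291633-6356642, plus strand) gave normalized counts of 9602, 6562, 8868 and 9547 in the white fat control libraries and 70616, 64057, 67888 and 110990.0 in those of brown fat, a fold of 8.94 (log2 difference 3.16 ± 0.24 (SE), limma adjusted p = 1.97e-05). Its brown fat library 4 stood above the other 3. Dlst (chr12:85110833-85134845, plus strand) gave normalized counts of 4852, 3146, 4624 and 5641 in the white fat control libraries and 25239.8, 27835, 36205 and 44528 in those of brown fat, a fold of 7.30 (log2 difference 2.87 ± 0.25 (SE), limma adjusted p = 3.62e-05). Dld, the third component, shared with pyruvate dehydrogenase, was 4.72-fold higher.

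Suclg1, of succinyl-CoA ligase, showed the largest fold of the 9. Suclg1 (chr6:73248382-73276911, plus strand) gave normalized counts of 2151, 1262, 1686 and 2229 in the white fat control libraries and 15806, 22907, 30264 and 25901 in those of brown fat, a fold of 12.9 (log2 difference 3.69 ± 0.25 (SE), limma adjusted p = 1.24e-05). Sucla2 (chr14:73525319-73596142, plus strand) gave normalized counts of 3215, 2116, 2521 and 3511 in the white fat control libraries and 29606, 29689.8, 29784 and 42567 in those of brown fat, a fold of 11.7 (log2 difference 3.54 ± 0.22 (SE), limma adjusted p = 7.81e-06). Brown fat libraries 1 to 3 lay close together for Sucla2, and library 4 was higher. Suclg2, the beta subunit of the GTP-forming ligase, rose 2.39-fold (95% interval of the log2 difference 0.75 to 1.77), an interval wholly below that of Sucla2 (3.06 to 4.03).

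Of the members, Mdh2 differed least between the tissues. Mdh2 (chr5:135778480-135790398, plus strand) gave normalized counts of 6339.7, 3895, 5664 and 8129 in the white fat control libraries and 19385, 25307, 27233 and 28326 in those of brown fat, a fold of 4.27 (log2 difference 2.09 ± 0.24 (SE), limma adjusted p = 0.000165). The interval of its log2 difference (1.55 to 2.64) lies below those of Suclg1 (3.13 to 4.25), Sucla2 and Idh3a (2.88 to 4.25). Mdh1, the cytosolic malate dehydrogenase, was 1.83-fold higher.

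Per transcript length, the scale on which genes can be compared, the order of the 9 genes differed between the tissues. In normalized counts per kilobase of the longest coding transcript, white fat controls ranked Mdh2 first (4126 ± 1202, mean ± SD, n = 4), then Cs (3204 ± 1119.7), Idh3g (2755 ± 629), Idh3b (2392 ± 588), Ogdh (2095 ± 346), Dlst (1652 ± 377), Idh3a (1411 ± 565), Sucla2 (1274 ± 286) and Suclg1 (1206 ± 295). Brown fat controls ranked Ogdh first (18994 ± 5307), then Cs (18904 ± 3455), Idh3b (17884 ± 3819.9), Idh3g (17656 ± 3786), Mdh2 (17213 ± 2737), Idh3a (15859 ± 3432), Suclg1 (15615 ± 4002), Sucla2 (14765 ± 2888) and Dlst (12103 ± 3163). The highest mean was 3.42 times the lowest in white fat and 1.57 times in brown fat. In both tissues the libraries of each gene overlapped those of the next gene in the order.

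The rest of the cycle was also higher in brown fat, but less evenly. Of 16 other cycle genes tested, 11 were called higher and 0 lower, while 20.5% of all features were called higher and 22.6% lower. The median log2 difference of the 16 was 1.18, against -0.05 over all features. The succinate dehydrogenase subunit genes, which tie the cycle to the respiratory chain, were Sdha (5.79-fold), Sdhb (6.62-fold), Sdhc (3.96-fold) and Sdhd (6.39-fold), and the genes of their assembly factors Sdhaf1 and Sdhaf2 (log2 difference 0.54) were called as well. Fumarase, Fh1, was 6.23-fold and the NADP-dependent matrix enzyme Idh2 4.66-fold higher, and Dld, Suclg2 and Mdh1 were called as well. The cytosolic enzymes Aco1 (log2 difference -0.16 ± 0.20 (SE)) and Idh1 (0.26 ± 0.26 (SE)) did not pass the test, nor did the low-count Mdh1b, Ogdhl and Dhtkd1.

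Pyruvate dehydrogenase feeds acetyl-CoA into the cycle, and 12 of 14 genes tested around it were called higher in brown fat and 1 lower (median log2 difference 1.98). The subunits were Pdha1 (6.08-fold), Pdhb (4.78-fold), Dlat (7.20-fold) and Pdhx (3.61-fold), and the mitochondrial pyruvate carrier genes Mpc1 (3.57-fold) and Mpc2 (3.95-fold). Among the kinases that switch the complex off, Pdk4 was 72.1-fold, Pdk1 3.81-fold and Pdk2 2.79-fold higher, while Pdk3 was lower (log2 difference -2.60 ± 0.27 (SE)). The phosphatase gene Pdp2 was 6.84-fold and its regulator Pdpr 3.92-fold higher, and Pdp1 did not pass (log2 difference -0.54 ± 0.43 (SE)). Among genes that fill or drain the cycle, 4 of 17 (23.5%) were called higher, near the 20.5% of all features. Lower calls were made for 2 of the 17, while 22.6% of all features were called lower. Slc25a20 (10.1-fold), Me3 (24.7-fold), Slc25a11 (3.74-fold) and Got1 (8.52-fold) were higher, and Me2 (-0.99 ± 0.20 (SE)) and Slc25a10 (-2.73 ± 0.63 (SE)) lower, as log2 differences. Of 12 regulators of mitochondrial genes, 8 were called higher and 0 lower, with Ppargc1a (10.7-fold), Ppargc1b (10.9-fold), Esrra (6.25-fold), Esrrg (56.3-fold), Esrrb (26.4-fold), Ppara (30.6-fold), Tfam (1.94-fold) and Gabpa (2.19-fold). Nrf1, a regulator whose letters were searched in the promoters, did not pass (log2 difference -0.02 ± 0.15 (SE)).

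**Figure D2:**
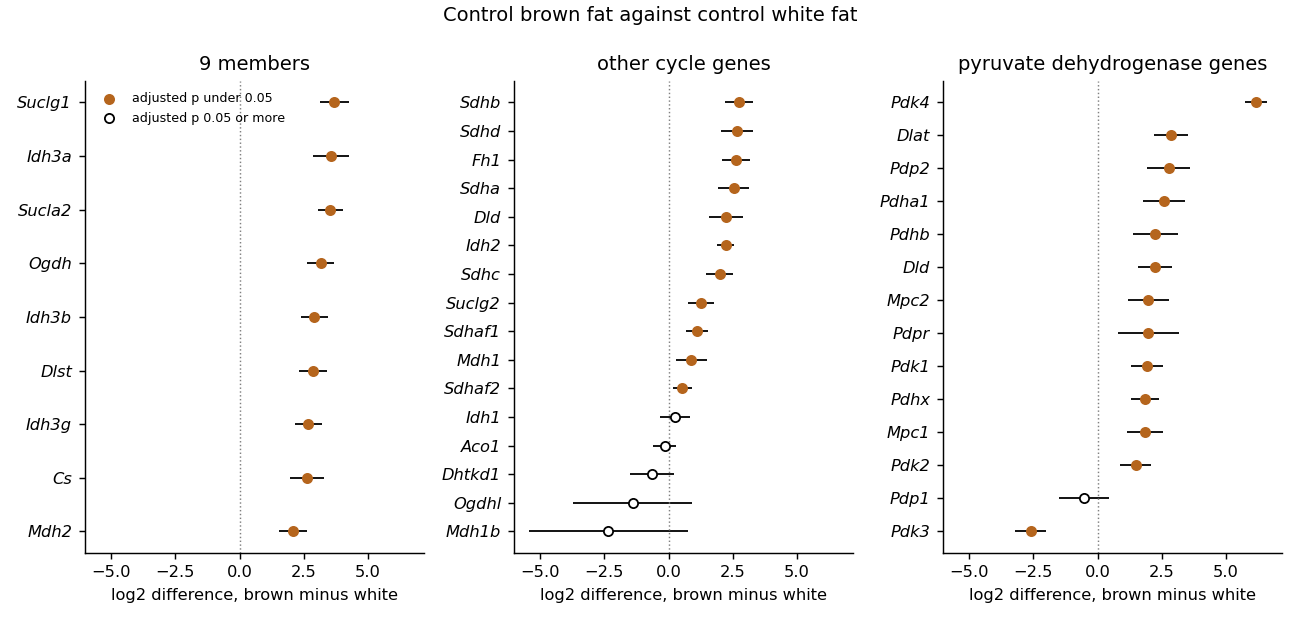
Log2 difference between control brown and control white fat with its 95% interval for the 9 members, 16 other cycle genes and 14 pyruvate dehydrogenase genes. Filled points have an adjusted p under 0.05 (limma, all features). All 9 members lie between 2.09 and 3.69, while the other lists reach from below 0 to 2.73 and 6.17.

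Leaving out the brown fat control libraries 1 and 2, the ones rich in muscle markers, kept all 9 members called, as did the other alternatives tried. With library 4 of either control group left out, or any other library, the fold of Suclg1 stayed between log2 differences of 3.52 and 3.87 and that of Mdh2 between 1.90 and 2.26.

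In white fat, the 9 members were lower with antimiR-224 than with scramblemiR on average, and none passed the test. The log2 differences ran from -0.54 (Cs) to -0.09 (Suclg1), with a median of -0.38 against 0.02 over all 17872 features. No member and no feature was called (limma; percent called 0; smallest adjusted p of a member 0.795). At an unadjusted p under 0.05 there were 1 of 9 members and 1116 features (6.24%), and 1 feature, no member, had an adjusted p under 0.05 in the authors' deposited table. The groups overlapped for all 9 members, while 3.53% of all features had groups that did not overlap.

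Cs gave 14676, 7079.7, 11716 and 17326 in scramblemiR and 7772, 6665, 10242 and 8790.3 in antimiR-224 libraries (log2 difference -0.54 ± 0.27 (SE), 95% interval -1.17 to 0.08, limma adjusted p = 0.797). Control library 2 lay inside the range of the treated libraries and the other 3 above it. Idh3a gave 5803, 2676, 4085 and 7165 in scramblemiR and 3319.9, 2967, 2963 and 3771 in antimiR-224 libraries (log2 difference -0.51 ± 0.28 (SE), adjusted p = 0.798 by limma). Control library 2 was the lowest of all 8, so the groups overlapped. Sucla2 gave 4350.5, 2912, 3388 and 4754 in scramblemiR and 2635, 2721, 3198 and 3082 in antimiR-224 libraries (log2 difference -0.38 ± 0.17 (SE), 95% interval -0.76 to -0.0035, adjusted p = 0.795 by limma). Its interval was the only one of the 9 that did not reach 0, and treated libraries 3 and 4 lay above control library 2. Suclg1 gave 2909.8, 1738, 2266 and 3017 in scramblemiR and 2539, 2420.1, 1979 and 2201 in antimiR-224 libraries (log2 difference -0.09 ± 0.18 (SE), adjusted p = 0.927 by limma). The alpha subunit thus differed least, and its 95% interval ran from -0.51 to 0.32. Ogdh and Dlst, which hold the seed match in their coding sequence, had log2 differences of -0.37 ± 0.18 (SE) and -0.38 ± 0.17 (SE), and Idh3b, Idh3g and Mdh2 of -0.40, -0.35 and -0.43.

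The size of these differences varied with the control libraries used. Leaving out control library 4 brought the median of the members to -0.27 and leaving out control library 2 to -0.55. Control library 2 was rich in sperm lineage RNA: the 10 markers summed to 32793 there, against 27.4, 16.7 and 70.6 in control libraries 1, 3 and 4. They summed to 339, 668, 9354 and 2556 in antimiR-224 libraries 1 to 4 and to 6.61 to 850 with antimiR-452. The part of sperm lineage RNA in these differences was not tested. In the mean over the 9 genes, control libraries 1 to 4 stood at 0.20, -0.53, -0.05 and 0.38 log2 units from the control average, those given antimiR-224 at -0.40, -0.57, -0.32 and -0.28, and those given antimiR-452 at -0.42, -0.38, -0.16 and 0.06. The summed level of Lep and Retn, the 2 mature adipocyte markers recovered in all 12 white fat libraries, was 53326, 32861, 47274 and 69786 in controls, 30007, 29679, 35213 and 42956 under antimiR-224, and 24145, 36723, 41600.4 and 46635 under antimiR-452. The 6 libraries with the lowest sums of these 2 transcripts were also the 6 lowest in the cycle genes. Lep alone read 10304 in antimiR-224 library 4, above control libraries 2, 3 and 4 (3990, 4605 and 7732). Plin1, another mature adipocyte marker, was recovered in controls (65193, 45404, 54628 and 66009.5) and antimiR-224 libraries (32806, 26899, 34329 and 41499) but not with antimiR-452. The part of adipocyte transcripts in the treatment difference was not tested. Markers of other cell types also differed between these white fat libraries. The 8 tubule epithelium markers recovered in all 12 summed to 359.9 to 993 in controls, to 6115, 8446, 1264 and 733 in antimiR-224 libraries 1 to 4 and to 4715, 6459.5, 5122 and 645 in those of antimiR-452. The 10 ciliated epithelium markers summed to 68.9 to 3701 in controls, to 8309, 10298, 1159 and 239.8 and to 5735, 8416, 6717 and 72.7, so 2 libraries of antimiR-224 and 3 of antimiR-452 lay above all controls in both lists. Mesothelium markers summed to 2835 to 16272, 10524 to 29562 and 5240.3 to 14669.5 in the 3 groups. The 9 brown adipocyte markers recovered summed to 1738, 608, 1273 and 2842 in controls, with control library 4 highest in them and in the cycle genes, and to 475 to 1472 with antimiR-224 and 684 to 917 with antimiR-452. Erythroid markers summed to 13926 to 65343 in controls, 7059 to 53366.5 with antimiR-224 and 3339 to 8769 with antimiR-452. Every antimiR-452 library thus lay below all controls in erythroid markers. Skeletal muscle markers summed to 490 to 1109, 547 to 1643 and 497 to 13266 in the same order, highest in antimiR-452 library 3. The 7 macrophage markers measured summed to 13614 to 19071 in controls, 16750 to 26664 with antimiR-224 and 8567 to 25530 with antimiR-452. The part of these cell types in the treatment differences was not tested.

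With antimiR-452 in white fat the 9 members were again below 0, from -0.37 (Sucla2) to -0.05 (Suclg1), with a median of -0.20 against -0.03 over all features. That median was -0.40 without control library 2 and -0.11 without control library 4. This comparison uses the same control libraries as that of antimiR-224, so the direction in both is not independent. No member and no feature was called (limma; percent called 0), with 0 members and 789 features (4.43%) at an unadjusted p under 0.05, and no feature was called in the authors' deposited table. The groups overlapped for all 9, while they did not for 1.66% of all features. Sucla2 gave 4354, 2933, 3414 and 4797 in scramblemiR and 2186, 2781, 3235 and 3852 in antimiR-452 libraries (log2 difference -0.37 ± 0.22 (SE), adjusted p = 0.998 by limma). Idh3a gave 5807, 2695, 4116 and 7229 in scramblemiR and 3457, 3591, 4758 and 4626 in antimiR-452 libraries (log2 difference -0.19 ± 0.29 (SE), 95% interval -0.84 to 0.46). Idh3a, which carries the miR-452-5p seed match in its 3′ UTR, was thus inside the range of the controls in all 4 treated libraries. Leaving out antimiR-452 library 4 raised the features called from 0 to 542, with 0 of the 9 members among them.

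**Figure D3:**
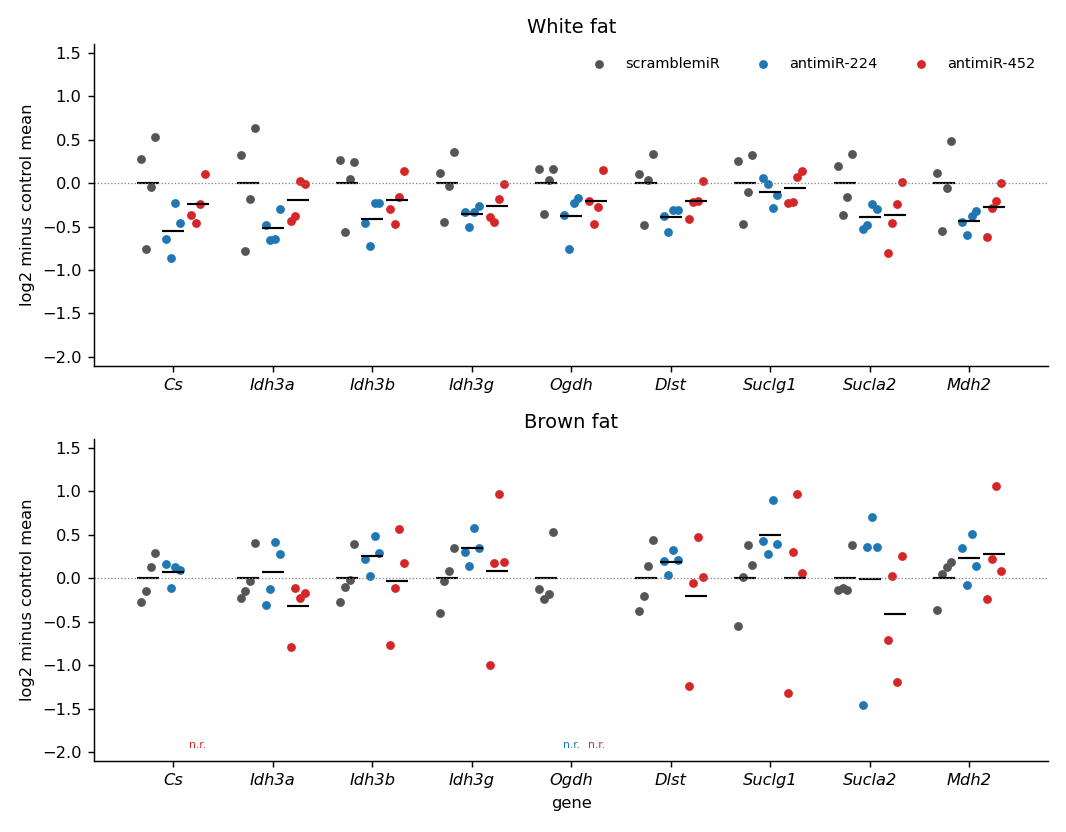
Log2 normalized count of each member in each library minus the mean of the 4 scramblemiR libraries of the tissue, for white fat and brown fat, scaled over the 12 libraries of a tissue. Points are libraries, bars are group means and n.r. marks groups whose libraries were not recovered. Most antimiR-224 points of white fat lie below 0, within the span of the controls or close to its lower end, and brown fat points of antimiR-452 spread most widely.

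In brown fat, most members had mean values above the controls under antimiR-224, and none passed the test. Of the 8 members recovered, 7 were above 0 and 1 below, with a median log2 difference of 0.21 against -0.07 over all 14496 features, and none was called (limma; percent called 0; smallest adjusted p of a member 0.729). The median was 0.06 without the muscle-rich libraries, 0.09 without control library 1 and 0.31 without control library 4. At an unadjusted p under 0.05 there were 0 members and 871 features (6.01%), and no feature was called in the authors' deposited table. Groups overlapped for all 8, and did not for 3.98% of all features. Suclg1 gave 11766, 17313, 22444 and 19054 in scramblemiR and 23251, 20814, 32312 and 22528 in antimiR-224 libraries (log2 difference 0.50 ± 0.24 (SE), 95% interval -0.02 to 1.03, limma adjusted p = 0.729). Its lowest values were control libraries 1 and 2, the libraries rich in muscle markers, and without the muscle-rich libraries the log2 difference was 0.26. Idh3g gave 13042, 16822, 18227 and 21806 in scramblemiR and 21332, 19026, 25987 and 21766 in antimiR-224 libraries (log2 difference 0.35 ± 0.20 (SE), adjusted p = 0.729 by limma). Idh3b (0.26), Mdh2 (0.23), Dlst (0.19), Cs (0.07) and Idh3a (0.07) were smaller still, as log2 differences; without the muscle-rich libraries those of Cs and Dlst were below 0, at -0.16 and -0.10. For Ogdh the authors' deposited table gives means of 58243 and 57139, a log2 ratio of -0.03 and an adjusted p of 1.

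In brown fat, Sucla2 varied apart from the other members, most of all in antimiR-224 library 1 and antimiR-452 library 3. Sucla2 gave 22038, 22439, 22088 and 31314 in scramblemiR and 8847, 31099.5, 39649 and 30807 in antimiR-224 libraries, with antimiR-224 library 1 far below the rest (log2 difference -0.01 ± 0.43 (SE), adjusted p = 0.997 by limma). Without library 1 the log2 difference was 0.48. That library also had a low level of Malat1, a nuclear noncoding RNA, at 7846 against 34658, 35789 and 49474 in the other 3 antimiR-224 libraries. Malat1 is in none of the gene lists used here. It read 20161 to 32780 in the brown fat controls and was not recovered in brown fat with antimiR-452. In brown fat with antimiR-452, Sucla2 was lowest in library 3, at 10757 against 22177, 22539.6, 22077 and 31914 in the controls, and the within-library ratio of Sucla2 to Suclg1 per transcript length was 0.214 there, 0.259 in antimiR-224 library 1 and 0.671 to 1.47 in the other 10 brown fat libraries. Both low-ratio libraries also stood apart in many other genes. Their shares of features below 0.45 of the group's median, 13.8% in antimiR-452 library 3 and 10.4% in antimiR-224 library 1, were the largest of any library. The part of this in the Sucla2 values was not tested. The Sucla2 reads of brown fat were chosen by the deposited p from 22200 solutions for antimiR-224 and 7076 for antimiR-452. That choice was not checked on simulated reads. Over the 12 brown fat libraries the correlation of log2 levels between pairs of the 7 members recovered in all of them had a median of 0.73, whereas pairs with Sucla2 had a median of 0.11 and reached -0.31 with Mdh2. Over the 12 white fat libraries the 36 pairs had a median r of 0.88 and a range of 0.50 to 0.98, with Suclg1 least like the others (median 0.69). These coefficients are descriptions over libraries that share tissue, scaling and 3 treatments.

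With antimiR-452 in brown fat the spread between libraries exceeded the differences. Of the 7 members recovered, 3 were above 0 and 4 below (median log2 difference -0.03 against -0.05 over all 14608 features), and none was called (limma; percent called 0; every member's adjusted p rounds to 1), nor any feature in the authors' deposited table. The median was -0.24 without antimiR-452 library 3 and 0.21 without library 1. At an unadjusted p under 0.05 there were 0 members and 560 features (3.83%). Groups overlapped for all 7, and did not for 3.15% of all features. Idh3g gave 13125, 16897, 18218 and 22224 in scramblemiR and 8667, 19497, 34194 and 19571 in antimiR-452 libraries (log2 difference 0.08 ± 0.42 (SE), 95% interval -0.87 to 1.04). Suclg1 gave 11840.1, 17390.5, 22433 and 19418 in scramblemiR and 6896, 21316, 34264 and 17976 in antimiR-452 libraries, a span wider than that of the controls. Library 1, whose 8 recovered muscle markers summed to 626883 against 159 to 231994 in controls, was low for both genes, and library 3 was high for both although it stood apart in many other genes. Idh3a gave 25817, 27219.5, 29312 and 40336 in scramblemiR and 17414, 27883, 26005 and 26767 in antimiR-452 libraries (log2 difference -0.32 ± 0.30 (SE)). This gene, with the seed match, was not called under antimiR-452 in either tissue. Mdh2 had the highest log2 difference (0.28 ± 0.34 (SE)) and Sucla2 the lowest (-0.41 ± 0.37 (SE)). For Cs and Ogdh the authors' deposited table gives log2 ratios of -0.13 and -0.29, each with an adjusted p of 1.

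**Figure D4:**
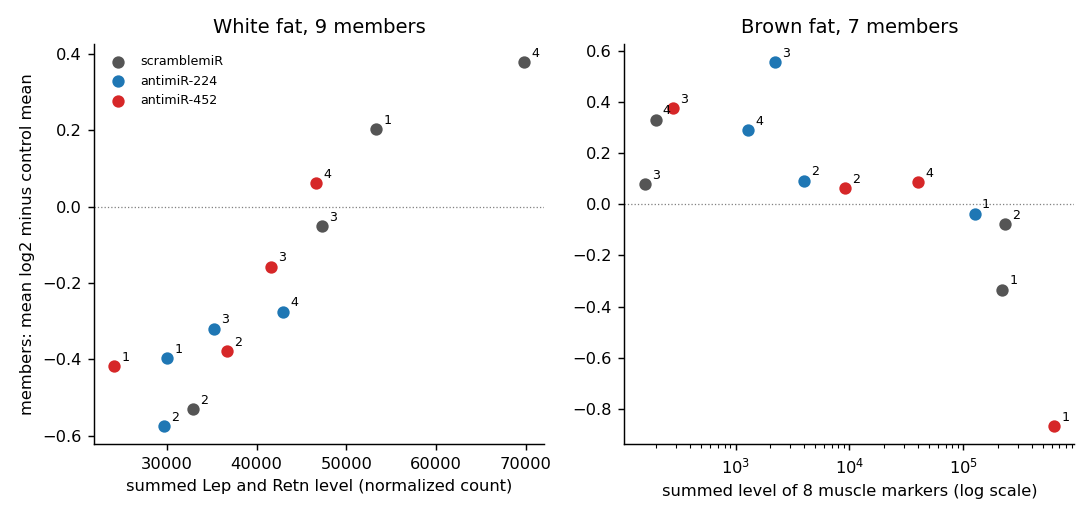
Mean log2 level of the members minus the control mean in each of the 12 libraries of a tissue, against the summed level of Lep and Retn in white fat (9 members) and of 8 skeletal muscle markers in brown fat (7 members, log scale). Numbers are libraries within a group. The members were lowest, at -0.87, in the brown fat library with a muscle sum of 626883, and highest in white fat, at 0.38, in control library 4.

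The mean of the 7 members in brown fat was lowest in the libraries with the most muscle RNA. Control libraries 1 to 4 stood at -0.33, -0.08, 0.08 and 0.33 log2 units from their average, those given antimiR-224 at -0.04, 0.09, 0.56 and 0.29, and those given antimiR-452 at -0.87, 0.06, 0.38 and 0.09. The 8 muscle markers recovered in all 12 libraries summed to 218658, 231994, 159 and 198 in the control libraries, to 125854, 3988, 2216 and 1286 under antimiR-224, and to 626883, 9141, 283 and 39973 under antimiR-452. The 3 libraries lowest in cycle genes, both of the muscle-rich controls and antimiR-452 library 1, held the 3 highest muscle sums. The 8 brown adipocyte markers recovered in all 12 libraries, which leave out Ucp1 and Cidea, moved with the members too. They summed to 29252, 38745, 48943 and 56909.7 in the controls, to 47283, 45361, 86889.8 and 55245 under antimiR-224 and to 12258, 58543, 91852 and 41181 under antimiR-452. The lowest sum was in the library lowest in the cycle genes. The 2 highest were in antimiR-452 library 3 and antimiR-224 library 3, the 2 highest in the cycle genes. The part of muscle RNA, or of brown adipocyte RNA, in the treatment comparisons was not tested.

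The antimiR-224 effect was set against itself between the tissues by an interaction term over 16 libraries, and no term for mice that may be shared between tissues could be fitted because the recovered libraries carry no numbers. The brown minus white difference of the log2 effects was above 0 for all 8 members tested, from 0.38 (Sucla2) to 0.70 (Idh3g), with a median of 0.61 against -0.10 over all 16586 features. None was called (limma; percent called 0; smallest adjusted p 0.589). At an unadjusted p under 0.05 there were 4 of 8 members (Idh3g, Idh3b, Mdh2 and Dlst) and 8.45% of all features. For Idh3g the effect was -0.35 in white and 0.35 in brown fat, a difference of 0.70 ± 0.26 (SE) with a 95% interval of 0.15 to 1.25, and without the muscle-rich brown fat libraries the difference was 0.50. For antimiR-452 the 7 members tested had differences from -0.13 (Idh3a) to 0.55 (Mdh2), with 0 at an unadjusted p under 0.05 (5.43% of all features) and none called (percent called 0; smallest limma adjusted p 0.872).

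**Figure D5:**
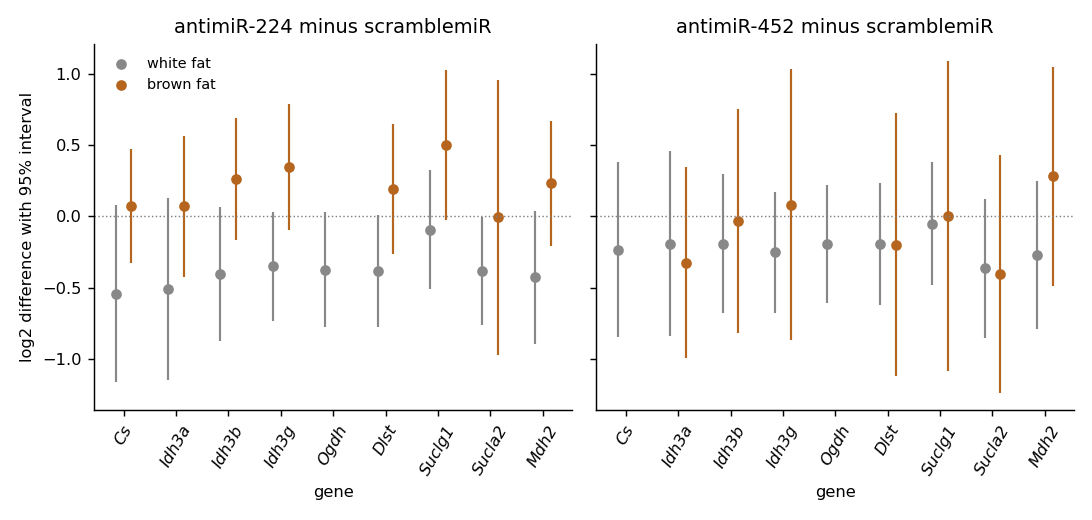
Log2 difference of each member between inhibitor and scramblemiR, with its 95% interval (limma), in white and brown fat. Genes without a brown fat point were not recovered there. White fat points lie below 0 for both inhibitors, brown fat points of antimiR-224 lie mostly above 0, and only the white fat interval of Sucla2 with antimiR-224 lies wholly on 1 side of 0.

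No gene of the surrounding lists was called with either inhibitor in either tissue, and up to 3 genes with the smallest p of each list are given as log2 difference ± SE. Over all features tested, 47.3% were below 0 with antimiR-224 and 55.3% with antimiR-452 in white fat. In brown fat these shares were 57.8% and 54.8%. With antimiR-224 in white fat, 13 of 16 other cycle genes were below 0 (median -0.26), led by Aco1 (-0.56 ± 0.14), Idh1 (-0.55 ± 0.22) and Sdhb (-0.38 ± 0.20). Around pyruvate dehydrogenase 10 of 15 were below 0 (median -0.30), led by Dlat (-0.65 ± 0.28), Pdhb (-0.73 ± 0.37) and Pdhx (-0.41 ± 0.23). Among genes that fill or drain the cycle 9 of 16 were below 0, led by Slc25a12 (0.74 ± 0.27), Me2 (-0.34 ± 0.14) and Pcx (-0.79 ± 0.35), and among regulators 4 of 11, led by Esrra (-0.42 ± 0.18), Ppargc1b (-0.36 ± 0.24) and Gabpa (0.16 ± 0.14). With antimiR-452 in white fat, 12 of 16 other cycle genes were below 0 (median -0.16), led by Ogdhl (2.40 ± 1.22), Idh1 (-0.46 ± 0.25) and Aco1 (-0.28 ± 0.18), and 11 of 15 pyruvate dehydrogenase genes (median -0.17), led by Pdhb (-0.57 ± 0.39), Mpc1 (-0.43 ± 0.32) and Dlat (-0.30 ± 0.29). Genes that fill or drain the cycle were below 0 in 8 of 16, led by Got2 (0.73 ± 0.20), Slc25a12 (0.87 ± 0.29) and Got1 (0.81 ± 0.28), and regulators in 4 of 11, led by Tfam (-0.28 ± 0.10), Esrrg (2.06 ± 1.26) and Esrra (-0.27 ± 0.21).

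With antimiR-224 in brown fat, 4 of 14 other cycle genes were below 0 (median 0.22), led by Sdhb (0.53 ± 0.22), Sdhd (0.49 ± 0.23) and Sdhaf1 (0.50 ± 0.24), and 8 of 12 pyruvate dehydrogenase genes (median -0.02), led by Mpc2 (0.62 ± 0.25), Pdhb (0.51 ± 0.22) and Mpc1 (0.40 ± 0.21). Genes that fill or drain the cycle were below 0 in 6 of 14, led by Me1 (0.50 ± 0.18), Slc25a1 (0.58 ± 0.25) and Pck2 (0.27 ± 0.18). The regulators were below 0 in 11 of 12 (median -0.24), led by Pprc1 (-0.54 ± 0.26), Ppara (-0.60 ± 0.34) and Ppargc1a (-0.26 ± 0.20), while 7 of 8 cycle members were above 0. With antimiR-452 in brown fat the counts were 6 of 14 (median 0.02), led by Sdhaf1 (0.49 ± 0.41), Sdhaf2 (0.22 ± 0.18) and Dld (-0.36 ± 0.35), and 9 of 13 (median -0.24), led by Pdp2 (-0.98 ± 0.38), Pdpr (-1.49 ± 0.76) and Dlat (-0.34 ± 0.31). They were 7 of 15 for filling and draining genes, led by Slc25a10 (0.60 ± 0.39), Glud1 (-0.31 ± 0.27) and Acly (-0.69 ± 0.64), and 10 of 12 for regulators (median -0.33), led by Ppara (-1.09 ± 0.35) and Yy1 (-0.34 ± 0.22).

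The genes whose level followed the members most closely were taken from 9963 genes in white and 9936 in brown fat with a mean of at least 100 in both tissues. In white fat these were Atp5b (r = 0.985 with the mean log2 level of the 9 members over 12 libraries), Apmap (0.982), Clybl (0.981), Cyc1 (0.980) and Ndufs1 (0.980), of which Atp5b, Cyc1 and Ndufs1 encode parts of the ATP synthase and the respiratory chain. In brown fat, with 7 members, they were Cox18 (0.991), Hmgb3 (0.981), Nudt7 (0.975), Wdr73 (0.972) and Galk2 (0.972), and no gene was on both lists. The coefficients describe libraries that share scaling and treatment groups and carry no test.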

How the data were processed

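White and brown fat from the 24 samples were sequenced, and 4 tables were deposited, 1 for each inhibitor and tissue. Per the submitters' processing notes, the tools include DESeq 1.10.1 and R 2.15.3 with genome build GRCm38.p4, and how reads were aligned and counted is not given in the sources used here. Per the file headers, the authors deposited the mean coverage, a signal of reads divided by size factors and averaged over the 4 libraries of a group. They also deposited the ratio of the 2 group means, its log2 value, a p-value and an adjusted p-value, per the file headers.

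Whole reads per library were recovered here as the integers that rebuild every printed digit. Control reads of the 28307 white fat and 23255 brown fat features recovered for both tables of a tissue were solved from both tables together. Identical control reads in the 2 tables are therefore no separate check of the recovery. For inhibitor groups, reads with several solutions were chosen by the deposited p-value, with the dispersion curve rebuilt from features with 1 solution, and 30 to 64 features per table were not recovered. On simulated reads it was exact for all 599 white and 600 brown fat control genes (both tables), and for all 309 and 310 genes per inhibitor group with a mean under 300 (1 table), while the choice by p-value was not simulated. All members had means above 300. Only Suclg1 (both inhibitors) and Sucla2 (antimiR-452) in white fat had a single solution. The other recovered member reads of inhibitor groups were chosen by p-value, in brown fat from 3841 to 26177 solutions each. limma 3.58.1 in R 4.3.3 (trend, robust) was fitted to log2(normalized count + 1) over all features with a mean of at least 10, with Benjamini-Hochberg adjustment over all of them and calls at 0.05. Fold changes are on that scale. Control libraries of both tissues were scaled together by median ratios, which assume that most features do not differ. Sequences were read with Python 3.11.15 from RefSeq and GENCODE tables. All 9 genes are named, and of the other lists the called genes between tissues and up to 3 of those with the smallest p under treatment. The members, lists and markers were chosen with earlier results of these data known. A further gene of the cycle is not reported here.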

Additional observations from a re-analysis of the deposited data

Results flagged for a closer look

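Of 51 groups of 4 libraries tested for a single value far from the other 3, 2 met the criterion (a gap over the group's range above 0.829), and chance alone gives about 1 in 20 groups. Ogdh read 110990 normalized counts in brown fat control library 4, against 64057 to 70616 in the other 3, a gap of 0.860 of the range. Sucla2 read 42567.4 in the same library, against 29606 to 29784 in the other 3, a gap of 0.986 of the range. That library had little muscle RNA, like control library 3, and both genes stayed higher in brown than in white fat without it.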

How the results depend on the processing

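All 9 members stayed called higher in brown fat under each of 15 alternatives (other pseudocounts, minimum means, scaling and variance settings, each library left out, and the muscle-rich brown fat libraries left out, the last chosen after seeing the data), while 5874 to 7377 features were called. No member was called for either inhibitor or for the difference between tissues under any alternative. Over all features, 0 calls became 542 for antimiR-452 in white fat, and 61 for its difference between tissues, without library 4 of white fat antimiR-452, 13 for antimiR-224 in brown fat without the muscle-rich libraries, 1 for the antimiR-452 difference with no minimum mean, and 1 for antimiR-224 in white fat by the authors' deposited p. Of 57 values of single members, 16 changed sign under some alternative, none of them called, and the cause was not tested. With each library left out in turn, log2 differences ran from -0.25 to 0.013 for Suclg1 with antimiR-224 in white fat, and from -0.45 to 0.020 for Idh3a and -0.21 to 0.055 for Suclg1 with antimiR-452 in white fat. In brown fat they ran from -0.017 to 0.17 for Cs, -0.049 to 0.20 for Idh3a and -0.25 to 0.48 for Sucla2 with antimiR-224, and from -0.24 to 0.21 for Idh3b, -0.22 to 0.44 for Idh3g, -0.43 to 0.15 for Dlst and -0.32 to 0.45 for Suclg1 with antimiR-452. The antimiR-452 difference between tissues ran from -0.34 to 0.13 for Idh3a, -0.048 to 0.40 for Idh3b, -0.23 to 0.34 for Dlst, -0.27 to 0.50 for Suclg1 and -0.26 to 0.22 for Sucla2. Without the muscle-rich libraries the brown fat antimiR-224 values were -0.16 for Cs, -0.096 for Dlst and 0.35 for Sucla2, the antimiR-452 value of Idh3b was 0.021, and the antimiR-452 difference for Dlst was 0.053. With upper-quartile scaling they were 0.067 for Sucla2 (antimiR-224), 0.010 for Idh3b (antimiR-452) and 0.030 for Dlst (difference), and the deposited log2 ratios were 0.17 for Sucla2 and 0.023 for Idh3b. No paired analysis was possible because the recovered libraries carry no replicate numbers, so header numbers that recur across tissues could not serve as a block. Depth was not limiting for these abundant genes, and the spread of 4 libraries a group set the precision.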
